A study of Homo sapiens with 18 samples.

Results

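The genes described here are 10 genes of the YAP/TAZ pathway in the human glioblastoma cell line U87MG: ANKRD1, CCN1, CCN2, AMOTL2, AXL, AJUBA, LATS2, YAP1, WWTR1 and TEAD1. They were taken by gene symbol from a table of 58302 genes and were chosen with the difference between Erastin-treated and control cells already known, so their changes are a description, no p-value is given for any of them, and counts of them past a threshold only place them among all genes. Gene counts came from 4 RNA-seq libraries of total RNA. The 2 control libraries, titled WT, came from U87MG cells under normal growth, and their labels name no solvent. For its Western blot the paper names DMSO as the control. The 2 Erastin libraries came from cells given Erastin at 10 μM for 72 h. Erastin blocks the cystine transporter system Xc- and thereby induces ferroptosis, an iron-dependent form of cell death. Apart from the treatment, the labels give all 4 libraries the same cell line. The labels number the replicates without naming separate cultures, so p-values measure the spread between these libraries, which may be technical.

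YAP1 and TAZ (the protein of the WWTR1 gene) are transcriptional coactivators at the end of the Hippo pathway. When the kinases LATS1 and LATS2 are active, they phosphorylate both proteins and hold them in the cytoplasm. When the kinases are inactive, as in spread cells on a stiff substrate, YAP1 and TAZ enter the nucleus, bind TEAD factors and switch on genes such as CCN1, CCN2, ANKRD1 and AXL. LATS2, AMOTL2 and AJUBA are pathway regulators, of which LATS2 and AMOTL2 are also target genes and so give negative feedback. The pathway is studied in glioblastoma for its links to growth, invasion and a mesenchymal state.

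TEAD factors bind the element GGAATG, which was searched on both strands in the RefSeq promoter windows (GRCh38.p14, 250 bases before to 50 bases after the start). The promoters of ANKRD1 and CCN2 are shown upstream of the start because both hold several of these elements, while the transcripts of both genes differed between the groups in opposite directions. Capitals mark GGAATG. Each sequence ends where the gene as the authors counted it begins. For ANKRD1 this is chr10:90921277-90921337, and its second element, which lies inside the counted gene, is shown apart with 10 bases on each side at chr10:90921200-90921225. The CCN2 sequence is chr6:131951374-131951622. All lie on the minus strand and are written 5′ to 3′.
ANKRD1: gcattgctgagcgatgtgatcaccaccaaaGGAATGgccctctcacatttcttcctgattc
ANKRD1, second element: cactgagtctGGAATGaaaattcacc
CCN2: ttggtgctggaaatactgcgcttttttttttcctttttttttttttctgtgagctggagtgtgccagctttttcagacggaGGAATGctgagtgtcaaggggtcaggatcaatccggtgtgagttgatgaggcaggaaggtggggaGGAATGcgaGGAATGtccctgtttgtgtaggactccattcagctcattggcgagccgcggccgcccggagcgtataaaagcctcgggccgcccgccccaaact
ANKRD1 held 2 elements, whose first bases lay 220 and 128 bases upstream of the start. CCN2 held 3 elements, at 169, 104 and 95 bases upstream. At least 1 element was found in 14.0% of the 35116 promoter windows of all genes, at least 2 in 1.37% and at least 3 in 0.128%. The ANKRD1 window also held a match to the AP-1 pattern TGANTCA, where N is any base (both strands searched, no overlap with GGAATG). This match began 195 bases upstream and has T as its middle base, and 7.71% of all windows hold a match to the pattern. The counted ANKRD1 gene reaches to position 90921276 on chromosome 10, so 189 bases upstream of the RefSeq start lie inside it.

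Promoter windows were listed for 8 of the 10 genes, with 12 windows in all. CCN1 and TEAD1 had no entry. A GGAATG element was found in 7 windows, each of a different gene. YAP1 had an element 162 bases upstream, and LATS2 had one 9 bases downstream of the start. AMOTL2, AJUBA and AXL each had an element in 1 of their 2 windows, at 69, 59 and 212 bases upstream. The 2 windows of WWTR1 held none. No window of these 8 genes held a CArG box, the element of serum response factor, which 1.29% of all windows hold. These are matches of letters and not measured binding sites.

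**Figure D1:**
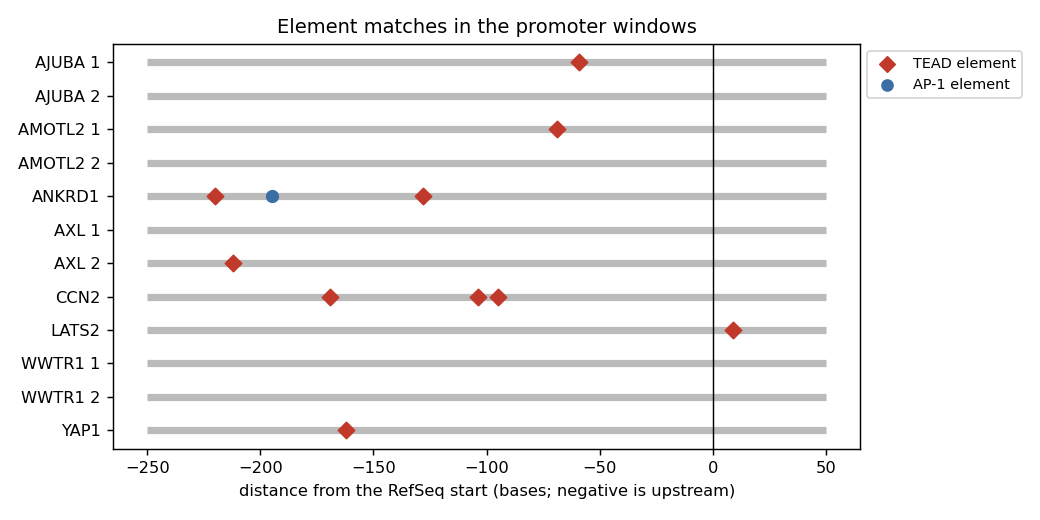
Positions of the TEAD element GGAATG (diamonds) and of the match to the AP-1 pattern TGANTCA, N being any base (circle), in the 12 promoter windows (grey bars), plotted by distance from the RefSeq start in bases. A number after a gene name numbers its windows by coordinate, and CCN2 has 3 TEAD elements and ANKRD1 has 2, whereas both WWTR1 windows are empty.

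All 10 genes passed the filter on low counts and were fitted among 16751 genes by edgeR. Counts are given per library, and levels as CPM (counts per 1000000 of the normalised library size). A gene counted as past both thresholds when its log2 fold change reached 1 or −1 and its adjusted p was under 0.05. ANKRD1 was past both thresholds and the other 9 were not, whereas 15.6% of all tested genes were past both. Without the threshold on the fold change, 5 of the 10 genes were higher and 4 were lower in Erastin-treated cells, where 23.2% and 23.7% of all tested genes were higher and lower, 47% together. The groups did not overlap for 9 of the 10 genes and for 73.6% of all tested genes, with 5 of the 10 above (36.7% of all) and 4 below (36.9% of all). These counts describe genes chosen on the same comparison and support nothing further. In bulk RNA, fewer cells that express a gene cannot be told apart from less RNA of that gene per cell.

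Among the target genes, ANKRD1 differed most. ANKRD1 (ENSG00000148677, chr10:90912096-90921276) encodes an ankyrin repeat protein of muscle that is widely used as a readout of YAP/TAZ activity. It had 6 and 8 counts in controls and 709 and 685 counts with Erastin. ANKRD1 was thus close to silent in both control libraries and clearly expressed in both Erastin libraries. Its mean level went from 0.227 ± 0.0433 to 22.8 ± 1.35 CPM (SD, n = 2 each). The log2 fold change came to 6.62 (standard error 0.23), and 24 genes of the 16751 had a larger one. Since the control level rests on 14 counts in all, the ratio of the summed counts, scaled to library size, was 100.07-fold with a 95% exact interval from 59.4 to 184, which covers counting error only. Relative to gene length, the control level was above that of 4.92% of tested genes, and the Erastin level was above that of 75.9%.

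CCN1 and CCN2 encode secreted matricellular proteins, older names CYR61 and CTGF, and are the best known target genes of YAP/TAZ. CCN1 (ENSG00000142871, chr1:85580761-85583962) had 1145 and 1329 counts in controls and 2462 and 2451 with Erastin. CCN2 (ENSG00000118523, chr6:131948176-131951373) had 654 and 740 counts in controls and 397 and 360 with Erastin. With Erastin, both libraries were therefore above the controls for CCN1 and below them for CCN2. The log2 fold change of CCN1 was 0.998 (standard error 0.09), just under the threshold on the fold change, and 40.1 ± 3.77 CPM stood against 80.2 ± 3.04 CPM (SD, n = 2 each). The log2 fold change of CCN2 was −0.87 (standard error 0.13), from 22.6 ± 1.72 CPM to 12.4 ± 1.28 CPM (SD, n = 2 each). CCN1 passed the threshold of 1 under some other settings, with 1.00 by DESeq2, by RLE factors and with the replicate block, 1.05 with library totals, 1.09 without the second control library and 1.04 without the second Erastin library. Per kilobase of exon, the level of CCN1 was 1.67 and 1.71 times that of CCN2 in controls and 5.91 and 6.49 times with Erastin.

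AMOTL2 and AXL are target genes with other functions in the cell. AMOTL2 (ENSG00000114019, chr3:134355874-134375479), an angiomotin family protein that binds YAP1 and keeps it out of the nucleus, had 1274 and 1238 counts in controls and 2216 and 2081 with Erastin. Its log2 fold change was 0.78 (standard error 0.09), and both Erastin libraries were above both control libraries. AXL (ENSG00000167601, chr19:41219203-41261766), a receptor tyrosine kinase of the TAM family that binds GAS6, was the most abundant of the 10 genes per kilobase in every library. It had 13463 and 11266 counts in controls and 7542 and 7795 with Erastin. AXL was thus lower in both Erastin libraries, but its control libraries differed, at 440.3 and 363 CPM. The log2 fold change of AXL was −0.68 (standard error 0.09), and it was −0.82 without the second control library and −0.54 without the first.

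**Figure D2:**
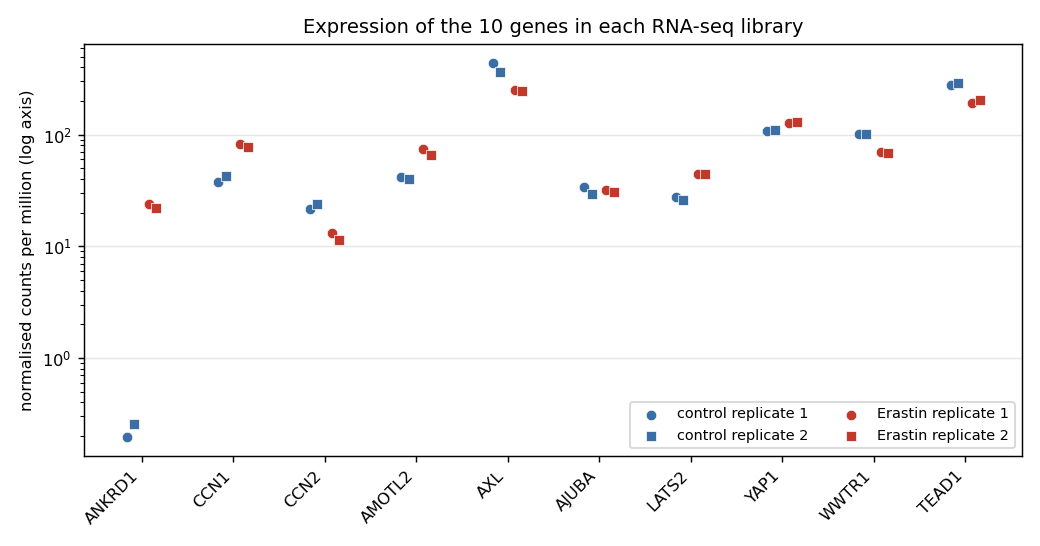
CPM (log axis) of the 10 genes in each library, with control libraries in blue, Erastin libraries in red, circles for replicate 1 and squares for replicate 2. The control points of ANKRD1 lie at 0.196 and 0.258 and its Erastin points at 23.7 and 21.8, whereas the points of AJUBA overlap.

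LATS2 and AJUBA act on the kinase step. LATS2 (ENSG00000150457, chr13:20973032-21061547), a kinase that inactivates YAP1 and TAZ, had 844 and 813 counts in controls and 1337 and 1404 with Erastin. LATS2 was higher in both Erastin libraries, with a log2 fold change of 0.73 (standard error 0.09). AJUBA (ENSG00000129474, chr14:22971174-22982642), a LIM protein that binds and restrains LATS kinases, had 1044 and 904 counts in controls and 945 and 962 with Erastin. The groups of AJUBA overlapped, and the log2 fold change came to −0.02 (standard error 0.11). Leaving out the second control library gave −0.14 and leaving out the first gave 0.09, and library totals in place of TMM gave 0.03, so the sign of AJUBA depended on single libraries and on the scaling.

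The remaining genes encode the coactivators and their DNA-binding partner. YAP1 (ENSG00000137693, chr11:102110461-102233423) had 3272 and 3436 counts in controls and 3791 and 4036 with Erastin, a log2 fold change of 0.23 (standard error 0.07). WWTR1 (ENSG00000018408, chr3:149517235-149736714), which encodes TAZ, had 3124 and 3166 counts in controls and 2104 and 2133 with Erastin, a log2 fold change of −0.56 (standard error 0.07). YAP1 was slightly higher and WWTR1 lower in both Erastin libraries, and the replicates of each were close together. Per kilobase of exon, YAP1 was 1.40 and 1.45 times WWTR1 in controls and 2.41 and 2.53 times with Erastin. Summed, the paralogs came to 29.1 and 29.7 RPKM (CPM per kilobase of exon) in controls and 28.5 and 28.5 RPKM with Erastin. TEAD1 (ENSG00000187079, chr11:12674591-12944483), a factor that brings YAP1 and TAZ to DNA, had 8553 and 9019 counts in controls and 5735 and 6470 with Erastin. TEAD1 was lower in both Erastin libraries, with a log2 fold change of −0.52 (standard error 0.07).

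**Figure D3:**
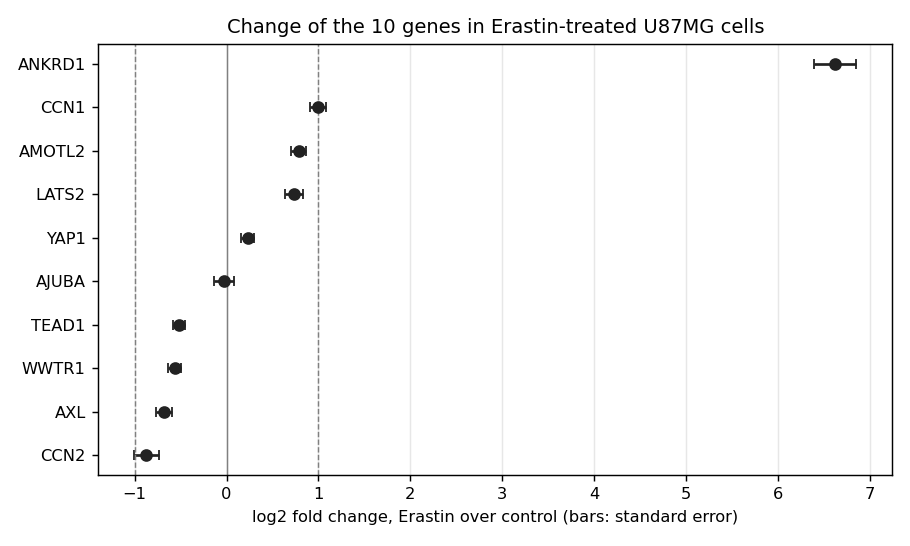
Log2 fold change of Erastin-treated over control cells for the 10 genes, with bars for the standard error from edgeR and dashed lines at −1 and 1. ANKRD1 at 6.62 stands apart, and the other 9 genes lie between −0.87 and 0.998.

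Compared per kilobase of exon, the order of the control means was AXL, TEAD1, YAP1, CCN1, WWTR1, CCN2, AMOTL2, AJUBA, LATS2 and ANKRD1, from 77.9 RPKM for AXL down to 0.115 RPKM for ANKRD1. The neighbours YAP1 and CCN1 overlapped in control cells, with 17.0 and 17.6 RPKM against 15.3 and 17.4 RPKM, and so did AJUBA and LATS2, with 5.71 and 4.87 RPKM against 4.95 and 4.69 RPKM. In Erastin-treated cells AXL again had the highest mean, 48.5 RPKM, followed by CCN1, YAP1, TEAD1, AMOTL2, ANKRD1, WWTR1, LATS2, CCN2 and AJUBA, the last at 5.20 RPKM. AMOTL2 and ANKRD1 overlapped there, with 12.4 and 11.1 RPKM against 11.98 and 11.02 RPKM. CCN2 and AJUBA also overlapped there, with 5.67 and 4.90 RPKM against 5.28 and 5.12 RPKM.

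Other annotated genes on the same exons had few counts. Genes on the opposite strand shared 8.34% of the exon bases of CCN2, 9.97% of those of YAP1 and 9.45% of those of WWTR1. That of CCN2 had at most 4 counts in a library and that of YAP1 had 0. WWTR1-AS1 had 19 and 2 counts in controls and 31 and 19 with Erastin. The counts were unstranded, and a read shared by several genes was left out, so each value stands for the exon bases outside these overlaps. Levels per kilobase were still divided by the full exon length, so comparisons between genes are approximate.

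The families of these genes were compared in the same libraries. Of 10 relatives, 7 could be tested by edgeR, of which 1 rose, 2 fell and 4 did not pass at an adjusted p under 0.05, which 47% of all tested genes passed. CCN3 (older name NOV) had 1970 and 2340 counts in controls and 2571 and 2816 with Erastin, and rose by a log2 fold change of 0.33 (adjusted p = 0.00752, edgeR quasi-likelihood test). CCN4 (older name WISP1), another secreted member of the family, had 315 and 219 counts in controls and 22 and 31 with Erastin. CCN4 fell by 3.32 on the log2 scale (standard error 0.29, adjusted p = 2.41e-06, same edgeR test), the largest difference among the relatives that could be tested. CCN5 had 6 and 14 counts in controls and 0 in both Erastin libraries, at least 6.63-fold lower when the Erastin group is set to a floor of 3 counts in all, and it was too low to be tested. CCN6 had between 12 and 33 counts and a log2 fold change of 0.17 (adjusted p = 0.844, edgeR), and its groups overlapped. Of the summed CCN level per kilobase, CCN1 made up 29.7% and 30.03% in controls and 46.6% and 44.995% with Erastin. CCN2 made up 17.8% and 17.5% in controls and 7.89% and 6.94% with Erastin. CCN3 stayed between 44.7% and 48.6% in all 4 libraries.

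**Figure D4:**
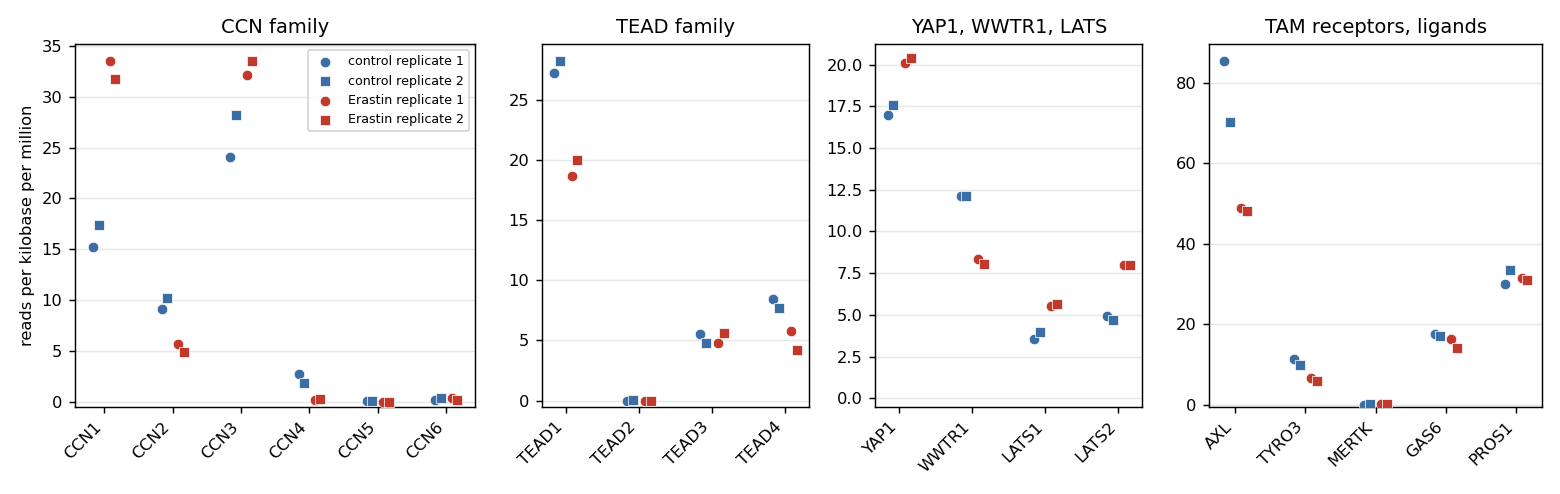
Level per kilobase of exon (RPKM) of the CCN family, the TEAD family, YAP1 with WWTR1 and the LATS kinases, and the TAM receptors with their ligands. Blue points are control libraries and red points Erastin libraries, with circles for replicate 1 and squares for replicate 2. The Erastin points of CCN1 lie above its control points and those of CCN2 below, TEAD2 and MERTK lie near 0, and AXL lies at 85.4 and 70.4 in controls and at 48.9 and 48.1 with Erastin.

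Of 7 further TEAD and VGLL genes, 5 could be tested by edgeR, of which 1 rose, 2 fell and 2 did not pass at an adjusted p under 0.05, where 23.2% and 23.7% of all tested genes rose and fell. Among the TEAD factors, TEAD1 was the most abundant per kilobase and made up between 63.8% and 69.4% of their sum in the 4 libraries. TEAD4 fell by 0.68 on the log2 scale (adjusted p = 0.00423, edgeR), from 584 and 542 counts in controls to 394 and 302 with Erastin. TEAD3 had a log2 fold change of 0.01 (adjusted p = 0.945, edgeR), with 519 and 450 counts in controls and 437 and 539 with Erastin. TEAD2 had 1 count in the 4 libraries together. The summed TEAD level was 41.2 and 40.7 RPKM in controls and 29.2 and 29.9 RPKM with Erastin. VGLL4, which competes with YAP1 for TEAD factors, rose by a log2 fold change of 0.41 (adjusted p = 0.00349, edgeR). VGLL3, another TEAD cofactor, fell by 0.24 on the log2 scale (adjusted p = 0.0297, edgeR), but did not pass with library totals (adjusted p = 0.0688), by DESeq2 (0.0599), without the first control library (0.0721) or without the first Erastin library (0.266), which leaves 1 gene of this list that fell. VGLL2 had a log2 fold change of −0.78 (adjusted p = 0.232, edgeR) on at most 36 counts, and VGLL1 had 0 counts in every library.

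For the TAM receptors, TYRO3 fell by 0.79 on the log2 scale (standard error 0.09, adjusted p = 1.68e-05, edgeR), from 3819 and 3384 counts in controls to 2143 and 2013 with Erastin. Per kilobase, AXL was 7.49 and 7.07 times TYRO3 in controls and 7.47 and 8.22 times with Erastin, so this ratio overlapped between the groups. MERTK had at most 6 counts in a library. The ligand genes GAS6 and PROS1 had log2 fold changes of −0.18 and −0.03 (adjusted p = 0.0929 and 0.810, edgeR). GAS6 passed with the replicate block (adjusted p = 0.0455), without the second control library (0.0301) and without the first Erastin library (0.0389), always with a fall. The muscle relatives of ANKRD1 remained near the limit of detection, with at most 2 counts for ANKRD2 and between 9 and 17 counts for ANKRD23 in a library (log2 fold change −0.44, adjusted p = 0.653, edgeR).

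The kinases and upstream regulators of the Hippo pathway were followed with a list of 22 further genes, all of which could be tested. At an adjusted p under 0.05 by edgeR, 9 rose, 4 fell and 9 did not pass, where 23.2% and 23.7% of all tested genes rose and fell. The number that rose depended on the method, with 7 by DESeq2 and 8 without the low-count filter, while 4 fell under both. The median log2 fold change of the list was 0.09 by edgeR, and that of all tested genes was −0.003. Past both thresholds, 0 genes were higher and 2 were lower, where 6.24% and 9.34% of all tested genes were. WWC1 (KIBRA), a scaffold that activates LATS kinases, fell by 1.23 on the log2 scale (adjusted p = 3.22e-05, edgeR). AMOT, a relative of AMOTL2, fell by 1.52 (adjusted p = 2.16e-05, edgeR) from 473 and 491 counts in controls to 187 and 147 with Erastin. AMOT and AMOTL2, which both bind YAP1, thus had differences of opposite sign, while AMOTL1 had a log2 fold change of −0.18 (adjusted p = 0.111, edgeR).

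The core cassette of this list and some further regulators were named after their values were seen. In the whole list 9 genes rose and 4 fell, where 23.2% and 23.7% of all tested genes rose and fell. LATS1 rose by a log2 fold change of 0.57 (adjusted p = 4.00e-04, edgeR), from 942 and 1066 counts in controls to 1428 and 1533 with Erastin. SAV1, the scaffold of the upstream kinases, rose by 0.65 (adjusted p = 4.26e-04, edgeR). The LATS cofactors MOB1A and MOB1B rose by 0.17 and 0.41 (adjusted p = 0.0468 and 0.00471, edgeR), although MOB1A did not pass under 6 of the 11 alternatives (adjusted p from 0.0509 to 0.235), DESeq2 and each library left out among them, and the tumor suppressor NF2 rose by 0.47 (adjusted p = 5.95e-04, edgeR). The upstream kinases STK3 and STK4 had log2 fold changes of −0.19 and 0.11 (adjusted p = 0.153 and 0.218, edgeR). MAP4K4, a further kinase that acts on LATS, fell by 0.53 (adjusted p = 5.88e-05, edgeR). LIMD1, another regulator of the list, fell by 0.31 (adjusted p = 0.00373, edgeR). DCHS1, a cadherin above the pathway, had a log2 fold change of 0.97 and passed the threshold of 1 with library totals (1.02), without the second control library (1.39) and without the second Erastin library (1.09). Its adjusted p, 0.035 by edgeR, did not pass by DESeq2 (0.0928), without the first control library (0.187) or without the first Erastin library (0.132).

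Other target genes were taken from a YAP/TAZ signature known across tumor types, of which 16 genes lie outside the 10 and 15 could be tested. FOXF2 had 0 counts in every library. At an adjusted p under 0.05, 5 rose, 6 fell and 4 did not pass by edgeR, where 47% of all tested genes passed. Without the first control library 5 rose and 3 fell, and without the second Erastin library 3 rose and 4 fell. The median log2 fold change was −0.10, against −0.003 for all tested genes. Past both thresholds, 2 were higher and 3 were lower, where 6.24% and 9.34% of all tested genes were. GADD45A, a stress and DNA damage response gene that p53 also induces, rose by a log2 fold change of 2.06 (adjusted p = 6.78e-09, edgeR), from 1595 and 1711 counts in controls to 7249 and 6395 with Erastin. IGFBP3, a secreted binding protein of insulin-like growth factors, rose by 1.19 (adjusted p = 5.81e-06, edgeR). TGFB2, a ligand of the TGF-beta family, fell by 1.68 (adjusted p = 1.43e-07, edgeR) from 1318 and 1306 counts in controls to 395 and 418 with Erastin. NT5E, the ectoenzyme CD73, fell by 1.34 (adjusted p = 2.65e-08, edgeR), and FJX1, a secreted protein, fell by 1.01 (adjusted p = 2.59e-06, edgeR). FJX1 lay at the threshold and was above −1 with library totals (−0.96), without the second control library (−0.99) and without the second Erastin library (−0.92). NUAK2, a kinase, had a log2 fold change of −0.83 on at most 114 counts (adjusted p = 0.0475, edgeR), and −1.26 without the first Erastin library. NUAK2 did not pass under 4 alternatives, among them DESeq2 (adjusted p = 0.122) and the fit without the second Erastin library (0.259).

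CCN1, CCN2 and ANKRD1 are also genes of the cytoskeletal response of serum response factor (SRF) and its MRTF cofactors, so 14 genes of that response were followed. By edgeR, 2 rose, 5 fell and 7 did not pass at an adjusted p under 0.05, where 47% of all tested genes passed. The median log2 fold change was −0.01. Which genes passed changed when single libraries were left out. SRF and MRTFA had log2 fold changes of 0.16 and 0.17 (adjusted p = 0.208 and 0.201, edgeR), and MRTFB fell by 0.79 (adjusted p = 4.55e-06, edgeR). ACTA2, the smooth muscle actin gene, rose by a log2 fold change of 1.23 (adjusted p = 4.17e-06, edgeR), from 384 and 425 counts in controls to 929 and 952 with Erastin. CNN2, a calponin, fell by 1.92 (adjusted p = 4.63e-08, edgeR), and VCL, which encodes vinculin of focal adhesions, fell by 1.04 (adjusted p = 1.00e-07, edgeR). VCL was at −0.99 with library totals.

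**Figure D5:**
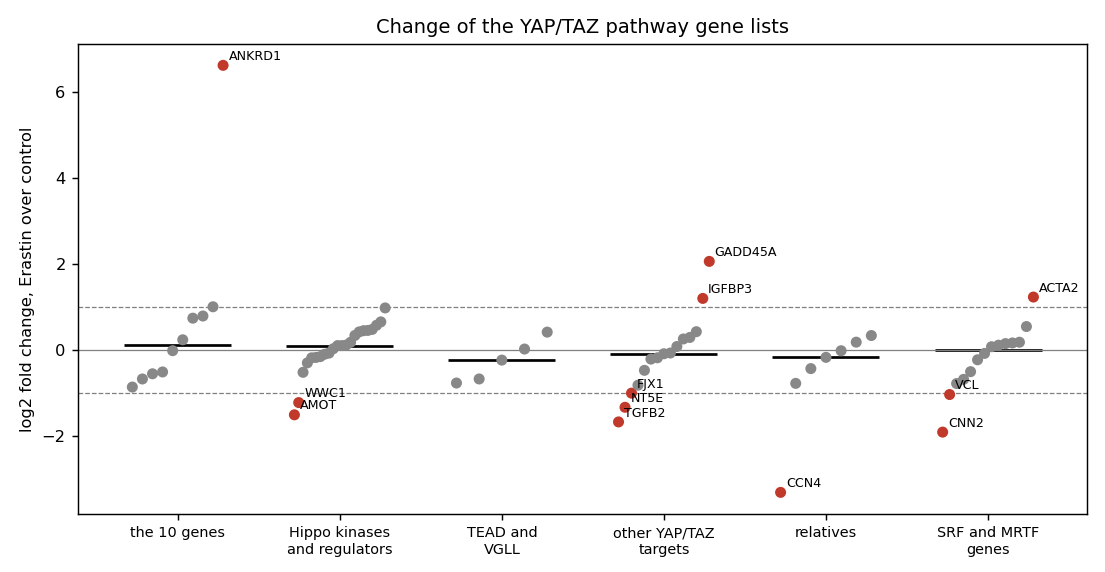
Log2 fold change of every tested gene in each list, with red points past both thresholds, black bars at the list medians and dashed lines at −1 and 1. ANKRD1 lies at 6.62, and the target list holds genes on both sides, from GADD45A at 2.06 to TGFB2 at −1.68.

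The genes whose profile was most like that of ANKRD1, CCN1 and CCN2 were sought by the distance between centred log2 CPM values over the 4 libraries, among 10839 other genes averaging 5 CPM or more. For ANKRD1 they were H4C8, SPINK1 and MICA, with distances of 0.959, 1.01 and 1.09 and log2 fold changes of 5.75, 5.61 and 5.49. All of them had at most 12 counts in each control library. They reached a mean of 5 CPM only through the Erastin libraries, and so did ANKRD1. Genes near silent in controls with lower Erastin levels were therefore not compared. For CCN1 they were SLC11A2, TMEM268 and GCNA, with distances of 0.0105, 0.0469 and 0.0544. For CCN2 they were ATP8B3, IVNS1ABP and FNBP1L, with distances of 0.0289, 0.0402 and 0.0421. With 4 libraries in 2 groups, likeness mostly reflects the size of the change.

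Across the tested genes with a promoter window, the GGAATG element went with little difference. Tested genes without a window, CCN1 and TEAD1 among them, were left out. Genes with at least 1 element in a window (1733 were tested) showed a median log2 fold change of −0.01 and 16.1% past both thresholds, and genes with none (9634) had 0.02 and 14.8%. Of those with at least 2 elements (156), 12 were higher and 12 lower past both thresholds, which is 15.4%. Of the 11 tested genes with at least 3 elements, which include CCN2, 0 were higher and 1 was lower past both thresholds.

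The libraries held between 29412656 and 31513519 counts on genes. The mesenchymal markers VIM, CD44 and FN1 were abundant, with VIM at 77887 and 77105 counts in controls and 48117 and 54053 with Erastin. FN1 differed more, with 151697 and 168464 counts in controls and 14138 and 16332 with Erastin. CHI3L1 of the same list had 5639 and 6833 counts in controls and 1266 and 1324 with Erastin. The glial and neural stem cell markers were lower in count, with 41 to 81 counts for GFAP, 59 to 88 for OLIG2, and 1277 and 972 counts for NES in controls against 105 and 77 with Erastin. Of 9 glioma and mesenchymal genes, 7 could be tested. By edgeR, 5 fell and 2 did not pass at an adjusted p under 0.05, where 23.7% of all tested genes fell. The summed level of these 9 glioma and mesenchymal genes was 9143 and 9566 CPM in controls and 3187 and 3423 CPM with Erastin, mostly through FN1. SOX2 and S100B had at most 6 counts in a library. Of 7 markers of leukocytes, endothelium, epithelium and neurons, 4 had at most 10 counts in every library. Their sum was 39.8 and 45.8 CPM in controls and 5.05 and 5.63 CPM with Erastin, carried by SNAP25 and PECAM1. The part of these differences in the values above was not tested.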

How the data were processed

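Total RNA of U87MG cells was sequenced in 4 libraries. The authors deposited raw counts of reads per gene, which per the file header were made by featureCounts 2.0.3 with the Ensembl release 90 annotation of GRCh38, unstranded, without reads that matched more than 1 gene. By that command, both reads of a pair were counted. The processing notes name HISAT2 2.1.0 and featureCounts 2.0.4, and the methods of the study name htseq-count. The deposited counts of all 4 libraries were tested for decimals, as estimated counts would have, and each library held 0. Symbols were joined by Ensembl identifier for 57532 of 58302 genes.

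The deposited counts were fitted with edgeR 4.0.16 under R 4.3.3. The filterByExpr function (minimum count 10) kept 16751 genes, TMM gave factors between 0.971 and 1.02, and the two-sided quasi-likelihood test was adjusted by the Benjamini-Hochberg method over all of them. Each standard error is the log2 fold change divided by the root of its F value. The methods were also run on counts simulated from the control means and fitted dispersion of these data. The genes changed there were few and well expressed in controls, so the run does not bear on genes as low as ANKRD1. With 2 libraries a group, exact permutation reaches 0.333 at the lowest, so p-values rest on a variance shared across genes. Levels per length used the deposited exon length.

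The 10 genes and all lists were chosen with earlier results of these data known. Named were the 10 genes, their tested relatives, TEAD and VGLL genes, up to 4 genes per direction of each other list past both thresholds, and the 3 nearest profiles; other genes were named after their values were seen. Alternatives were RLE factors, library totals, no filter, at least 10 counts in every library, DESeq2 1.42.0, a replicate block, counts divided by 2 and each library left out. PCR reads without molecular identifiers are not independent molecules. ChIP-seq and HiChIP were not analysed here.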

Additional observations from a re-analysis of the deposited data

How the results depend on the processing

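Over the 11 alternatives, the numbers of genes past both thresholds ran from 791 to 1160 higher and from 1341 to 1713 lower. With each library left out in turn, they ran from 895 to 1066 and from 1446 to 1526. The median log2 fold change of the 10 genes, 0.10, turned to −0.026 when at least 10 counts were required in every library, because ANKRD1 with its 6 and 8 control counts then dropped out and 9 genes remained. With each library left out it lay between 0.05 and 0.15. ANKRD1 lay between 6.44 and 6.82 under the alternatives that kept it, CCN2 between −0.98 and −0.77, and WWTR1 between −0.59 and −0.51. Library totals in place of TMM raised the median of all genes from −0.003 to 0.05. The labels give no shared culture or day for a replicate number, and the deviations of same-numbered libraries had a correlation of 0.0203 across genes. With the replicate block, 1039 genes were higher and 1568 lower, the median of the 10 genes was 0.11, and 5 target genes, 2 Hippo regulators and 3 SRF genes were past both thresholds. Of the other genes in the lists, GAS6 was the one whose adjusted p changed side under the block (0.0455). ANKRD1 is limited by depth in control cells, and CCN5, TEAD2, MERTK and ANKRD2 were too low to be tested.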
